A study of Caenorhabditis elegans with 9 samples.

Results

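The genes described here are 10 regulators of sexual fate in *Caenorhabditis elegans*, namely *her-1*, *tra-2*, *fem-1*, *fem-2*, *fem-3*, *tra-1*, *fog-1*, *fog-3*, *fog-2* and *gld-1*. They were chosen by name for their place in the sex determination pathway and were found by NCBI Gene number among the 45495 genes of the deposited expression table. The study sequenced RNA of whole wild-type adult hermaphrodites of the N2 strain, kept at 20 °C, to ask how alternate day fasting (ADF) at different ages changes gene expression. Its labels list 3 groups of 3 libraries, which are worms given 7 days of ADF at the young stage, worms given 7 days of ADF at the middle stage, and control worms. The levels reported below are those of young stage ADF replicate 1. Since the remaining 8 labelled libraries were not analysed here, no level carries a replicate error, and ADF worms were not set against control worms.

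Sexual fate in *C. elegans* is set by a chain of inhibitory steps that ends at the transcription factor TRA-1, which represses male genes. The secreted protein HER-1 inhibits the membrane receptor TRA-2, TRA-2 restrains the FEM proteins, and the FEM proteins together with the ubiquitin ligase scaffold CUL-2 mark TRA-1 for destruction. The hermaphrodite is a female in its body whose germ line makes sperm for a short time before it turns to oocytes. Sperm are made while GLD-1 and FOG-2 hold back translation of the *tra-2* mRNA and FOG-1 and FOG-3 direct germ cells to sperm fate, and the turn to oocytes needs repression of the *fem-3* mRNA by the FBF proteins. Several of these steps act on translation or on the protein, so an mRNA level does not measure the activity of its product.

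Levels are in FPKM, the number of sequenced fragments on a gene scaled by gene length and by the library total. Fragments were recovered as whole numbers from the FPKM values and a library total of 18205113, and each 95% interval is an exact Poisson interval on them. The intervals cover counting error only. The library was made from many worms at once, so germ line, embryos inside the mother and somatic tissue are mixed, and fewer cells of a type cannot be told apart from less RNA per cell. For young stage ADF the paper reports eggs that hatched inside the worms, so larvae may be part of the mix. Their share was not tested. Marker genes stood as follows. All 10 oocyte genes were at 83.1 FPKM or more, with a median of 350 FPKM. Of 14 sperm genes, 4 reached 1 FPKM, beside 56.9% of protein-coding genes. The median of the 14 was 0.231 FPKM, beside 1.93 FPKM over protein-coding genes, with *spe-8* and *spe-11* listed at 0. None of 9 genes of male somatic tissue reached 1 FPKM, beside the same 56.9%, and *lov-1*, *cwp-3* and *dmd-3* were listed at 0. Genes switched on in the early embryo had a median of 1.34 FPKM over 7 genes, and 5 intestinal genes had a median of 913 FPKM. The intestinal genes were not uniformly high. *vit-2*, *vit-5* and *vit-6* had 913 FPKM or more, whereas *ges-1* and *elt-2* were far lower, with *elt-2* lowest at 5.97 FPKM. A listed 0 cannot be read as silence in this table, since 8 of 78 ribosomal protein genes were also listed at 0.

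RNA of 9 of the 10 genes was present, beside 16649 of the 19959 protein-coding genes above 0. At 1 FPKM or more were 8 of the 10, beside 56.9% of protein-coding genes. The levels of these 9 spanned a range from 0.991 FPKM for *fog-3* to 103 FPKM for *fem-2*, a ratio of 104 (95% interval 65.7 to 176). The median over all 10 was 16.3 FPKM, or 4.11 on the log2(FPKM + 1) scale, beside 1.93 FPKM and 1.55 over protein-coding genes. Oocyte markers were high and sperm markers low in the same library, and the part of the makeup of the germ line in these levels was not tested.

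**Figure D1:**
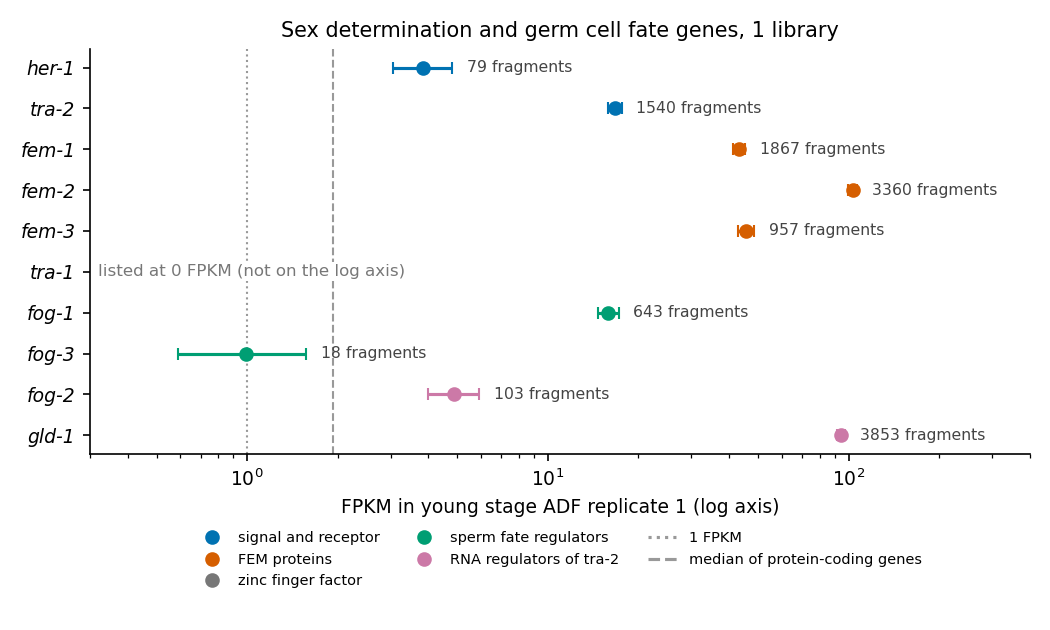
Levels of the 10 genes in FPKM on a log axis, grouped by role, with points for the single library young stage ADF replicate 1 and bars for the exact Poisson 95% interval. *fem-2* at 103 FPKM and *gld-1* at 94.3 FPKM stand highest, *fog-3* is lowest of those above 0 at 0.991 FPKM, and *tra-1* is listed at 0.

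The ligand and its receptor, which open the pathway, differed in level. *her-1* (gene 179360, chromosome V, 9697015 to 9702035, plus strand of WBcel235) encodes the secreted signal that directs XO animals to male fate. It had 3.85 FPKM (95% interval 3.05 to 4.80) on 79 fragments. That placed it at a percentile of 23.9 among protein-coding genes with at least 1 FPKM, the ranking used for the percentiles of level below, and at 56.7 among all protein-coding genes. *tra-2* (gene 174137, chromosome II, 6955384 to 6965673, minus strand) encodes the receptor that promotes female fate, a protein of 1475 residues. It had 16.7 FPKM (95% interval 15.9 to 17.6) on 1540 fragments, a percentile of 49.8. Per length, *tra-2* was 4.34 times as abundant as *her-1* (95% interval 3.46 to 5.51), so the gap between them exceeded counting error. The exons of *tra-2* share 26 bases with those of *ceh-38*, a homeobox gene on the opposite strand at 66.0 FPKM. The methods name a stranded kit and the labels another, so fragments in these 26 bases cannot be assigned to either gene with certainty.

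The *fem* genes, whose products act together against TRA-1, were all in the upper part of the range. *fem-2* (gene 175217, chromosome III, 632019 to 634626, minus strand) encodes a protein phosphatase of the PP2C type. It was the highest of the 10 genes at 103 FPKM (95% interval 99.5 to 107) on 3360 fragments, a percentile of 86.1. *fem-1* (gene 177335, chromosome IV, 5533140 to 5537962, minus strand) encodes an ankyrin repeat protein that recruits CUL-2. It had 43.1 FPKM (95% interval 41.2 to 45.1) on 1867 fragments, a percentile of 68.3. *fem-3* (gene 177734, chromosome IV, 9104966 to 9107607, plus strand) encodes a protein of 388 residues that binds the other FEM proteins, and its mRNA is the one that FBF represses. It had 45.6 FPKM (95% interval 42.7 to 48.6) on 957 fragments, a percentile of 69.4. The products work in one complex, but *fem-2* mRNA was 2.39 times that of *fem-1* (95% interval 2.26 to 2.53) and 2.26 times that of *fem-3* (95% interval 2.10 to 2.43). Per length, *fem-3* mRNA was 1.06 times that of *fem-1*, with a 95% interval of 0.977 to 1.14 that includes 1. It was 2.73 times that of *tra-2* (95% interval 2.51 to 2.96), whose product binds FEM-3.

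The place of *fem-3* depends on the length behind its FPKM. That length, recovered from the value itself, was 1153 bases, whereas its annotated exons merge into 1674 bases, a ratio of 0.689. Of its annotated transcripts, with 1666, 1175 and 591 bases, the 1175 base transcript lies nearest. With the merged length *fem-3* would have 31.4 FPKM, below *fem-1*. For 7 of the other genes above 0, a single length near the annotated one gave whole fragments, and it lay within 10% of the merged length. For *fem-2*, many lengths did so and the one nearest the annotation was taken, so its fragments and the width of its interval rest on the annotated length.

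**Figure D2:**
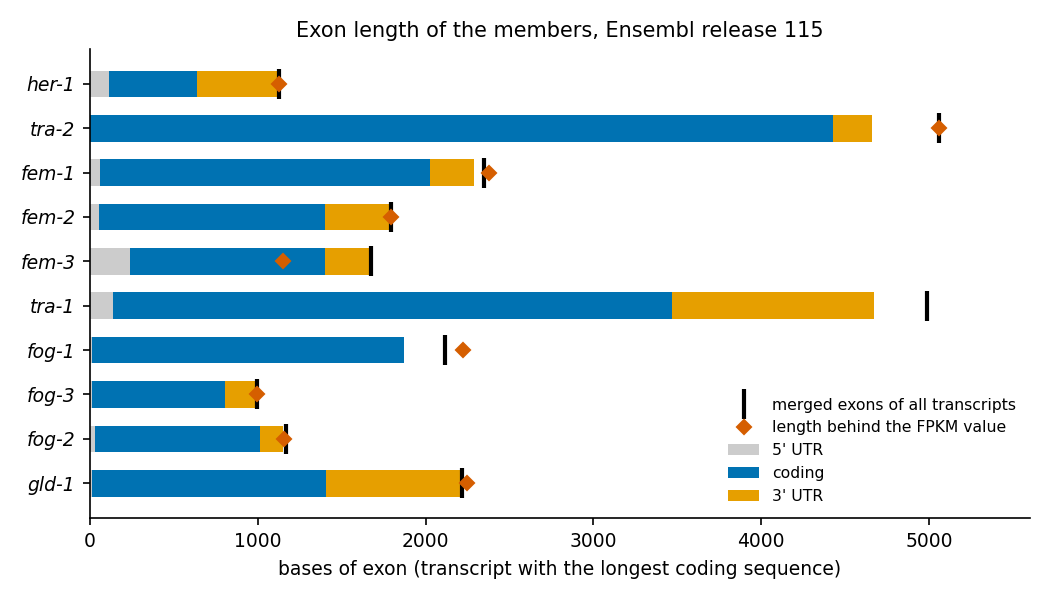
Exon bases of each gene in the Ensembl annotation, with bars for the 5′ untranslated, coding and 3′ untranslated parts of the transcript with the longest coding sequence, black ticks for the merged exons of all transcripts and diamonds for the length behind the deposited FPKM. The diamond of *fem-3*, at 1153 bases, lies well left of its tick at 1674 bases, and *tra-1*, listed at 0, has no diamond.

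*tra-1*, the gene at the end of the pathway (gene 176548, chromosome III, 11170890 to 11195201, minus strand), was listed at 0. It encodes a zinc finger protein of the GLI family with 1110 residues, and its exons merge into 4987 bases. Of the 757 protein-coding genes with at least 4000 exon bases, 10 were at 0, *tra-1* itself among them. That is 1.32%, against 16.6% of all protein-coding genes (the limit of 4000 bases was chosen after the value of *tra-1* was seen). The zero did not stand alone in the genome. In gene order *tra-1* closes a run of 10 neighbouring protein-coding genes on chromosome III, from *sup-35* at 11115754 to *tra-1* at 11195201, all listed at 0. The run also holds *pola-1*, a subunit of the DNA polymerase that primes replication, *cku-70*, a subunit of the Ku DNA repair complex, and *pha-1*. The gene before it, *hmt-1*, had 34.7 FPKM, and the gene after *tra-1*, *tbx-34*, had 0.388 FPKM. The value of *tra-1* is therefore given as listed, with no limit placed on its RNA.

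**Figure D3:**
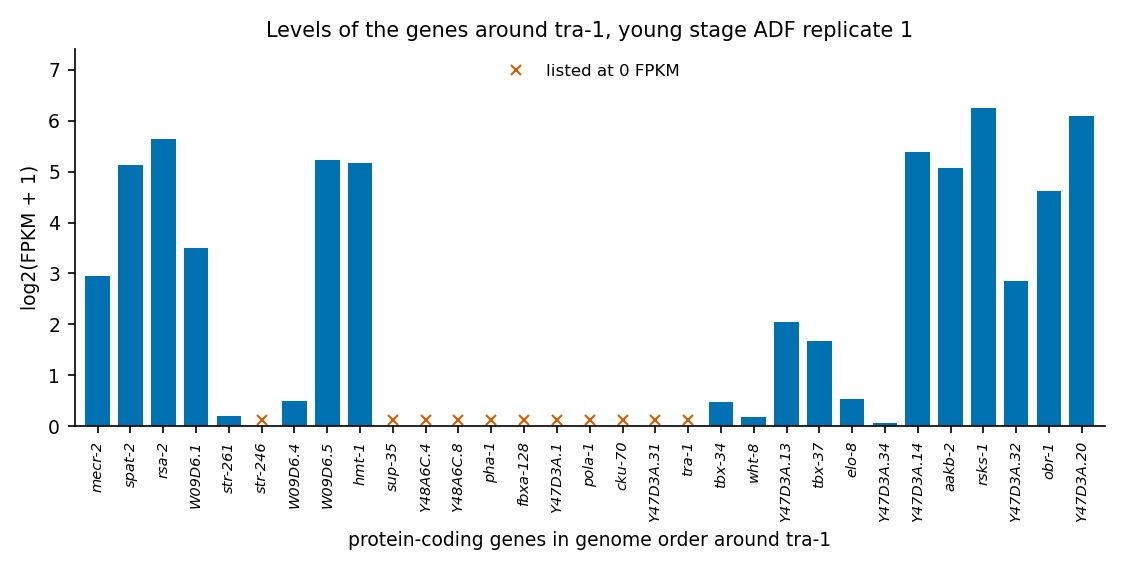
Level as log2(FPKM + 1) of the protein-coding genes around *tra-1* in genome order in young stage ADF replicate 1, with crosses for genes listed at 0 FPKM. The 10 genes from *sup-35* to *tra-1* are all at 0, and *hmt-1* beside them is at 34.7 FPKM.

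The genes that commit germ cells to sperm differed from each other. *fog-1* (gene 171895, chromosome I, 3211046 to 3217267, plus strand) encodes an RNA-binding protein of the CPEB family. It had 15.9 FPKM (95% interval 14.7 to 17.2) on 643 fragments, a percentile of 48.9. *fog-3* (gene 172863, chromosome I, 10016765 to 10018121, plus strand) encodes a protein of the Tob family. It had 0.991 FPKM (95% interval 0.587 to 1.57) on 18 fragments, so its interval spans the detection level of 1 FPKM. Both are needed for sperm fate, yet *fog-1* mRNA was 16.0 times that of *fog-3* (95% interval 10.1 to 27.2). The sperm markers were low in the same library, with a summed level of 25.9 FPKM over 14 genes, of which *spe-44*, a transcription factor of sperm development, gave 15.0 FPKM. The 10 oocyte markers summed to 3804 FPKM. The part of either in the level of *fog-3* was not tested.

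The genes that hold back *tra-2* mRNA also stood apart. *gld-1* (gene 172532, chromosome I, 7695681 to 7698222, plus strand) encodes an RNA-binding protein with a KH domain that is abundant in meiotic germ cells and blocks translation of many oocyte mRNAs. It had 94.3 FPKM (95% interval 91.4 to 97.3) on 3853 fragments, a percentile of 84.7. *fog-2* (gene 180321, chromosome V, 20199254 to 20200648, plus strand) encodes an F-box protein that binds GLD-1 on the *tra-2* mRNA and is needed for sperm in hermaphrodites but not in males. It had 4.88 FPKM (95% interval 3.98 to 5.92) on 103 fragments, a percentile of 28.1, or 59.1 among all protein-coding genes. *gld-1* mRNA was thus 19.3 times that of its partner (95% interval 15.9 to 23.7).

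**Figure D4:**
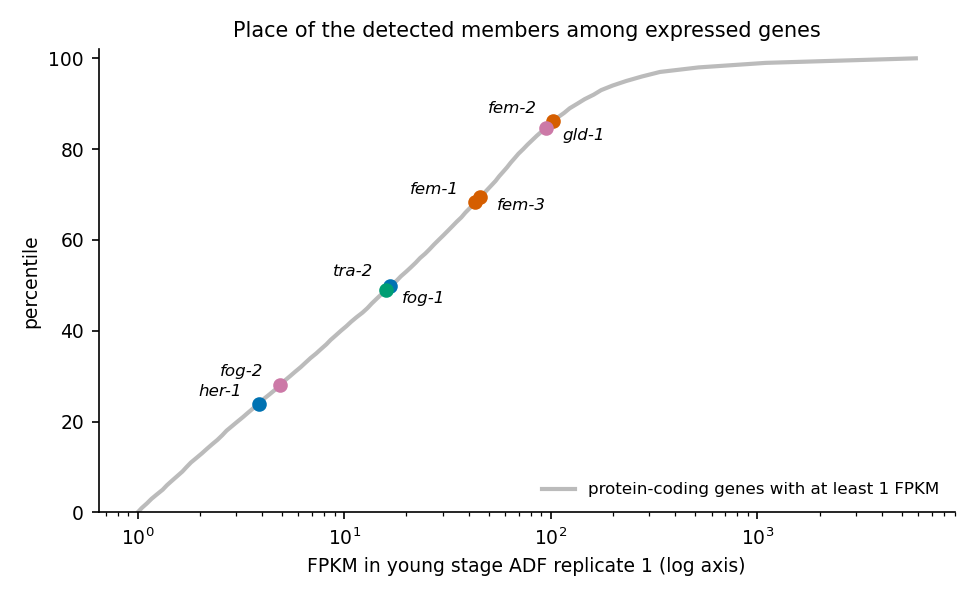
Percentile among protein-coding genes with at least 1 FPKM (grey line) against FPKM on a log axis, with a point for each of the 8 genes at 1 FPKM or more in young stage ADF replicate 1. *fem-2* at 86.1 and *gld-1* at 84.7 are in the upper range, and *tra-2* at 49.8 and *fog-1* at 48.9 are near the middle.

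Ordered by level, the genes ran *fem-2*, *gld-1*, *fem-3*, *fem-1*, *tra-2*, *fog-1*, *fog-2*, *her-1* and *fog-3*. Of the 8 pairs of neighbours in this order, 3 did not differ beyond counting error. These were *fem-3* over *fem-1*, *tra-2* over *fog-1* at a ratio of 1.05 (95% interval 0.959 to 1.15), and *fog-2* over *her-1* at 1.27 (95% interval 0.937 to 1.72). The other 5 intervals left out 1, the closest being *fem-2* over *gld-1* at 1.09 (95% interval 1.04 to 1.14). Steps of more than 2-fold separated *fem-1* from *tra-2* at 2.58, *fog-1* from *fog-2* at 3.25 and *her-1* from *fog-3* at 3.89. The step from *gld-1* to *fem-3* was 2.07, with a 95% interval of 1.93 to 2.22 that includes 2. With merged exon lengths, *fem-1* in place of *fem-3* came after *gld-1*. With 1 library, the genes whose pattern across samples is most like that of a given gene could not be sought.

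Close relatives differed in level from the genes they resemble. *fog-2* lies 1012 bases from its relative *ftr-1*, on the same strand of chromosome V, and both encode F-box proteins. *fog-2* had 0.140 times the level of *ftr-1* (95% interval 0.113 to 0.172), which stood at 34.9 FPKM on 664 fragments. How fragments that match both genes were shared out was not tested. Among the CPEB genes, *fog-1* had 0.490 times the level of *cpb-1* (95% interval 0.446 to 0.539), a gene needed for sperm to complete meiosis, which stood at 32.4 FPKM. It had 0.180 times that of *cpb-3* at 88.2 FPKM (95% interval 0.166 to 0.196). It was well above *cpb-2* at 0.556 FPKM on 21 fragments, by a ratio of 28.6 (95% interval 18.5 to 46.5). *gld-1* was 15.7 times as abundant (95% interval 14.2 to 17.4) as *asd-2*, a KH domain gene of the same family that regulates splicing in muscle, which stood at 6.01 FPKM.

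In the annotation, most of these genes have a 3′ untranslated region longer than the median, the part of the mRNA through which GLD-1 and FOG-2 act on *tra-2* and FBF acts on *fem-3*. In the transcript with the longest coding sequence, this region was longer than the median of 124 bases of protein-coding genes that have one in 9 of the 10 genes. It has 1202 bases in *tra-1*, at a percentile of 99.3 among those genes, 812 bases in *gld-1*, at 97.6, and 483 bases in *her-1*, at 92.5. *tra-2*, at a percentile of 74.9, and *fem-3*, at 78.4, were less extreme, and the transcript of *fog-1* has none annotated. *tra-1* also has an unusually long intron of 7880 bases, and *her-1* one of 3338 bases, beside a median of 401 bases for the longest intron of protein-coding genes. The proteins run from 175 residues for HER-1 to 1475 residues for TRA-2.

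Upstream of *her-1*, the genes that read the number of X chromosomes and set the switch had a median of 2.36 FPKM. Of the 7, 4 reached 1 FPKM, a share near the 56.9% of protein-coding genes. *sex-1*, a nuclear hormone receptor that counts X chromosomes, was highest at 24.8 FPKM. *xol-1*, the switch gene that sets male fate in the XO embryo, had 0.402 FPKM on 18 fragments, and *ceh-39* and *sdc-3* were listed at 0. The dosage compensation genes, which act on X chromosome expression in hermaphrodites, reached 1 FPKM in 7 of 7, beside 56.9% of protein-coding genes, and ran from 15.3 FPKM for *dpy-21* to 314 FPKM for *dpy-30*, with a median of 30.2 FPKM.

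Genes whose products work beside the TRA and FEM proteins reached 1 FPKM in 8 of 8, beside 56.9% of protein-coding genes. They had a median of 71.4 FPKM, from 16.5 FPKM for *tra-3*, a calpain protease that cleaves TRA-2, to 156 FPKM for *rpn-10*, a proteasome subunit. *cul-2*, the scaffold that acts with the FEM proteins, had 74.8 FPKM. RNA regulators of germ cell fate reached it in 23 of 23, beside the same 56.9%, with a median of 71.5 FPKM. *daz-1*, an RNA-binding protein of oogenesis, was highest at 195 FPKM. The lowest were the genes of the FBF proteins that repress *fem-3* mRNA, *fbf-2* at 1.43 FPKM on 59 fragments and *fbf-1* at 4.56 FPKM on 187 fragments. These genes are near-identical copies, so how fragments were divided between them is uncertain.

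Among the pathway lists, genes downstream of TRA-1 had the lowest median and mRNAs bound by GLD-1 the highest. Of the 6 reported TRA-1 targets, *egl-1*, a cell death activator, alone reached 1 FPKM, beside 56.9% of protein-coding genes. It had 4.52 FPKM on 46 fragments, and the median was 0.808 FPKM. *fog-3* itself is in this list at 0.991 FPKM, and *dmd-3*, a regulator of the male tail, was listed at 0. The mRNAs reported as GLD-1 targets reached 1 FPKM in 14 of 14, beside the same 56.9%, with a median of 212 FPKM. Of these, 5 (*oma-1*, *oma-2*, *rme-2*, *puf-5* and *spn-4*) are also among the 10 oocyte markers. They ranged from 16.7 FPKM for *tra-2*, the member of the pathway among them, to 965 FPKM for *pos-1*, a maternal RNA-binding protein. The yolk receptor mRNA *rme-2*, another of them, had 318 FPKM.

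**Figure D5:**
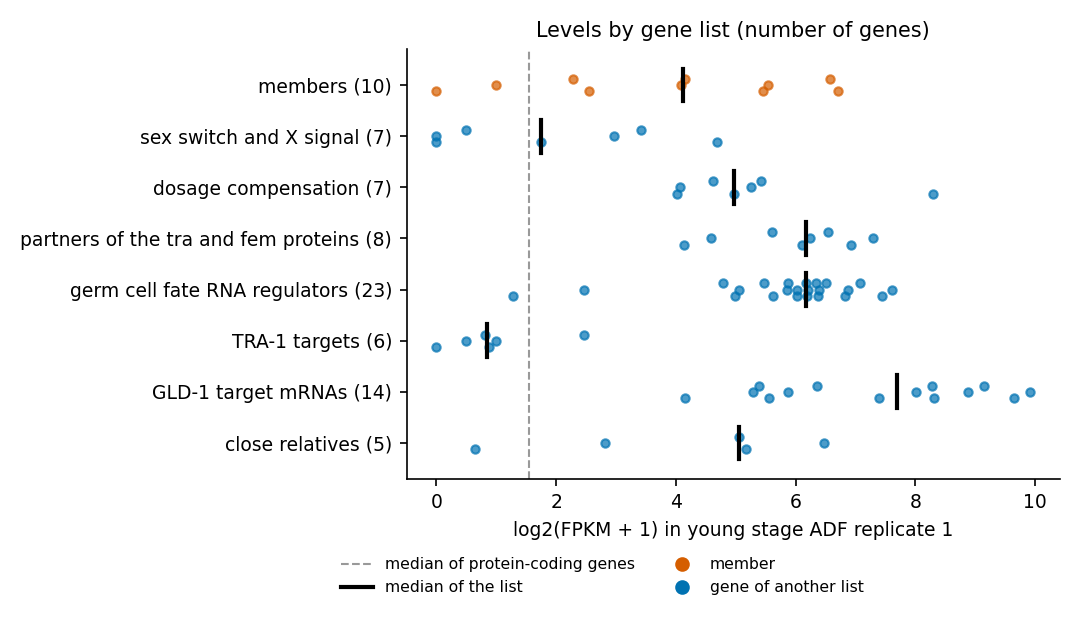
Levels on the log2(FPKM + 1) scale of the genes in each pathway list, marker lists left out, with a point per gene, a black bar at the median of each list and a dashed line at the median of protein-coding genes. Among the lists drawn, GLD-1 target mRNAs have the highest median, at 212 FPKM, and TRA-1 targets the lowest, at 0.808 FPKM.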

How the data were processed

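RNA of whole worms in 1 library, young stage ADF replicate 1, was analysed. Group and replicate follow the labels, which list 9 libraries. The authors deposited FPKM values and describe reads aligned to WBcel235 with HISAT2 and FPKM from Ballgown, whose versions and annotation are not given in the sources used here. The submitters' processing notes name Bowtie 0.12.2 and StringTie. The methods name a KAPA stranded kit and the labels the Illumina TruSeq RNA kit.

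Of 45519 entries, 24 mitochondrial ones with 0.103% of the summed FPKM were left out. Gene numbers were matched to RefSeq for 44752 of 45495 genes and to Ensembl release 115 for 43108. Fragments were recovered as FPKM × length × library total. With the annotated length, 77.0% of 6469 protein-coding genes under 40 fragments lay within 0.02 of a whole number. Fragments were recovered for 17175 of the 17925 genes above 0 and sum to 17533814. They are inferred from the FPKM values. The recovery was tested on simulated data with lengths within 10% of the annotated ones. That test does not cover the length recovered for *fem-3*, at a ratio of 0.689.

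Levels carry exact Poisson 95% intervals, and ratios carry exact conditional binomial 95% intervals. The detection level was 1 FPKM and the log2 scale used a pseudocount of 1. Named genes are every member, its close relatives and overlapping genes, and in each pathway list the highest, the lowest and those at 0. *cul-2*, *fbf-1*, *rme-2*, *spe-44*, the intestinal markers, the shared oocyte markers and the neighbours of *tra-1* were named after their values were seen. The members and lists were chosen with earlier results of these data known. Alternatives were other thresholds, pseudocounts, lengths and scales. A search for sequence motifs and protein identity was not analysed here. Scripts ran under Python 3.11.15 with matplotlib 3.10.9, pandas 2.3.3, scipy 1.17.1 and numpy 2.4.6.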

Additional observations from a re-analysis of the deposited data

How the results depend on the processing

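No paired analysis was possible because 1 library was analysed here, so no replicate could be left out either. The number of members detected was 8, and it lay between 6, at 10 FPKM or more, and 9, at any FPKM above 0, at 0.1 FPKM or on the TPM scale. At 1 FPKM or more were 56.9% of protein-coding genes, and 16649 of the 19959 were above 0. Among protein-coding genes with at least 1 FPKM, percentile 40 lay at 9.64 FPKM and percentile 41 at 10.2 FPKM. The share of protein-coding genes at 0.1 FPKM or on the TPM scale is not given here. Counts at those settings therefore have no share beside them. The members' median on the log2(FPKM + 1) scale was 4.11, beside 1.55 over protein-coding genes, and on the TPM scale 4.35, beside 1.72. Over the members at 1 FPKM or more it was 4.81, beside 4.16 over protein-coding genes at that level, a smaller gap. The mean of all members was 3.83, beside 2.54 over protein-coding genes. Without *tra-1* (chosen after seeing the data) the members' median was 4.15. Of the 6 TRA-1 targets, 1 was detected at 1 FPKM, beside 56.9% of protein-coding genes, but 5 at 0.1 FPKM and 5 at any FPKM above 0. The share above 0 was near that of all protein-coding genes, at 16649 of 19959. With annotated lengths 7 of the 8 neighbour pairs kept their order and *fem-3* fell below *fem-1*. By fragments without length 6 did, with *gld-1* above *fem-2* and *fem-1* above *fem-3*. Of 40 alternative percentiles of members, 35 were higher and 0 lower than that in the main ranking, among protein-coding genes with at least 1 FPKM. Rankings among all protein-coding genes, those above 0 or those at 0.1 FPKM only add genes below 1 FPKM, so no percentile could fall there. Ranking among all protein-coding genes moved *fog-3* most, from 0 to 43.1. At 0.991 FPKM it lies below every gene of the main ranking.

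Depth limits *fog-3*, on 18 fragments, whose side of the 1 FPKM level is not settled.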

Other observations

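Runs of neighbouring genes at 0 were looked for after *tra-1* was seen to lie in one. Over 19794 protein-coding genes in genome order there were 2010 runs of genes listed at 0, of which 1384 held a single gene, and 9 held at least 10 genes. Besides the run that ends with *tra-1*, the longest held 26 genes on chromosome V, from 15039148 to 15105943, and began with *sdc-3*, a regulator of *her-1* that also acts in dosage compensation. That run holds *mcm-3*, a subunit of the replication helicase, and *unc-76*, an axon outgrowth gene. A further run of 15 genes on chromosome II holds *fzy-1*, an activator of the anaphase-promoting complex, and ends with *tbx-35*, an embryo marker. The other 6 of the 9 runs hold, among others, chemoreceptor genes of the *srw*, *srh*, *srt* and *srd* families, F-box genes, *oac* genes and *nhr* genes. The genes in these runs were named after their values were seen.

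The entries of the table have an order in which the last entry above 0 stands at place 23935 and the 21584 entries after it are all at 0. All 10 genes of the run that ends with *tra-1* and 25 of the 26 that begin with *sdc-3* are among those last entries, as are 1160 of the 3310 protein-coding genes at 0. Of the 9 long runs, 2 lie wholly among them, the other being a run of 17 genes with many F-box genes. The runs that begin with *oac-45*, *srw-122*, *srh-204* and *nhr-285* have 4 of 14, 5 of 12, 4 of 10 and 4 of 12 genes there, the one that begins with *srd-71* 7 of 11, and the one that ends with *tbx-35* 11 of 15. Of the 8 ribosomal protein genes at 0, 5 are among them. The cause of the zeros was not tested.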
